A study of Homo sapiens with 6 samples.

Results

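The genes for 7 proteins of the cytoplasmic granules of myeloid cells, MPO, ELANE, PRTN3, AZU1, CTSG, LYZ and SRGN, were examined for peaks of DEK binding in the human U937 cell line. U937 is an established line with features of immature monocytic cells, and DEK is a chromatin-bound oncoprotein. The line was cultured without any treatment, and the groups analysed were 2 precipitations with an antibody against DEK and 2 with an antibody against H3K4me3, the trimethylation of histone H3 at lysine 4. Non-precipitated chromatin served as the input of the study and was not analysed here. A peak was assigned to a gene when it overlapped the gene body or the 10 kb on either side of it by at least 1 bp, with genes from GENCODE 44 on GRCh37 (hg19). These windows held 3 of the 15017 peaks of DEK precipitation 1 and 29 of the 152779 peaks of DEK precipitation 2. AZU1, PRTN3 and ELANE lie next to each other on chromosome 19, their windows overlap, and a peak within them was counted once, so that the 7 of 20163 protein-coding genes form 5 loci.

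Azurophil granules are the lysosome-like granules that a myeloid cell fills at the promyelocyte stage. MPO is a heme peroxidase that makes hypochlorous acid, while ELANE, PRTN3 and CTSG are serine proteases, and AZU1 is a related protein without protease activity that kills bacteria and attracts monocytes. LYZ cleaves the bacterial cell wall and continues to be made in mature monocytes and macrophages. SRGN is the core protein of a proteoglycan that packs the basic enzymes into the granule. Transcription of several of these genes is known to depend on PU.1, C/EBP, RUNX1 and MYB, and H3K4me3 is a mark found around the start of genes that are being transcribed.

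The 4 sequences below are shown because DEK peaks lay on or beside them and because they carry letters that match motifs of these factors. The promoters of CTSG (chr14:25045457-25045706, minus strand), PRTN3 (chr19:840749-840998, plus strand) and AZU1 (chr19:827587-827836, plus strand) are the 250 bases before the gene start, from RefSeq promoters on GRCh38.p14 that were located by exact match in GRCh37, whose coordinates are given. These 3 of the 7 genes were in that table. The CTSG promoter lay in a DEK peak of precipitation 1, and those of AZU1 and PRTN3 lay in DEK peaks of precipitation 2. The MPO sequence (chr17:56359116-56359415, minus strand) is the 300 bases of GRCh37 around the middle of the strongest peak of precipitation 1 at this gene. All are written 5′ to 3′ on the strand of the gene. Capitals mark GAGGAA (core of PU.1 sites), TGTGGT (RUNX), TTNNGNAA (C/EBP), GGGCGG (SP1) and CACGTG (E-box of USF1) on either strand.
CTSG: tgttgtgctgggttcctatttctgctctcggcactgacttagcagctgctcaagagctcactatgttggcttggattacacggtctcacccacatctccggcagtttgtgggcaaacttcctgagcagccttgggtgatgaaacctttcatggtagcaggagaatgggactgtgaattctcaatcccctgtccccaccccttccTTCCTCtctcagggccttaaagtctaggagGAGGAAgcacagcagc
PRTN3: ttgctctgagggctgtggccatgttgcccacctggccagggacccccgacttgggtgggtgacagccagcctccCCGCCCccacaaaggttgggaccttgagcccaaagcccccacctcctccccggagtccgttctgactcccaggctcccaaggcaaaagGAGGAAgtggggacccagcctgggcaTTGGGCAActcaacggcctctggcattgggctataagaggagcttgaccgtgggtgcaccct
AZU1: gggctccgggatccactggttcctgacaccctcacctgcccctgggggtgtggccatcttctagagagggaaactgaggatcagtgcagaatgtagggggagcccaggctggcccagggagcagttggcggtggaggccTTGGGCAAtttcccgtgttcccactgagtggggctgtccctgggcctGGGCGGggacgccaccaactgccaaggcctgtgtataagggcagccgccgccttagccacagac
MPO: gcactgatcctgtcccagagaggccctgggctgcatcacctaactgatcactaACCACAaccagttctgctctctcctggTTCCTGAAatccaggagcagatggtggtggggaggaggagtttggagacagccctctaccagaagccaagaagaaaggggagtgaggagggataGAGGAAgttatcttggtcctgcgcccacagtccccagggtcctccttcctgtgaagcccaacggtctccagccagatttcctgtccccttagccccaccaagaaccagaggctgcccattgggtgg

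GAGGAA was found in the CTSG promoter at position 235, on the strand of the gene, and at position 205 as TTCCTC on the opposite strand, with positions counted from 1 at the 5′ end. In the PRTN3 promoter the same letters started at position 163 and TTGGGCAA, a match to TTNNGNAA, at position 189. The AZU1 promoter held TTGGGCAA at position 140 and GGGCGG at position 187. In the MPO sequence GAGGAA started at position 175, and matches to TGTGGT and TTNNGNAA lay on the opposite strand at positions 54 and 81. AACNG, the core of MYB sites, was searched as well and is not in capitals because it is common: it was found in all 4 sequences, 1 to 3 times in each. No motif overlapped another in these sequences. GAGGAA was present in 23.6% of the 250-base promoters among 35116 RefSeq promoters, TTNNGNAA in 33.2%, GGGCGG in 42.6%, TGTGGT in 11.0%, AACNG in 70.6% and CACGTG in 6.34%. A match is a run of letters and not a measured site.

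The deposited lists of the 2 DEK precipitations differed in length and in the values of their peaks. Precipitation 1 had a median of 47 tags per peak (range 18 to 3940) and precipitation 2 a median of 20 tags (12 to 4932), where a tag is a sequenced read assigned to the peak. The score of the peak caller, 10 × −log10 of its p-value, had a median of 68.8 in precipitation 1 and 78.28 in precipitation 2, and the median fold enrichment was 5.57 and 4.58. Every peak of precipitation 1 carried a false discovery rate of 100%, against 0.74 to 16.67% in precipitation 2. Over the genome 4453 intervals were shared by the lists. H3K4me3 precipitation 1 gave 47523 peaks, of which 55.1% overlapped a peak of H3K4me3 precipitation 2, and H3K4me3 precipitation 2 gave 29335, of which 92.2% overlapped. The exact number of reads behind each list is not in the files, so tags were compared within a list only. The values below are 1 per precipitation and were not tested. Intervals of tags are exact Poisson 95% intervals and cover counting error only.

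DEK precipitation 1 had peaks at MPO and CTSG, with none at the other 5 genes. In DEK precipitation 2, 6 of the 7 genes had peaks, and CTSG had none. No interval at any of the 7 genes was shared between the precipitations. For comparison, 32.6% of protein-coding genes had a peak of precipitation 1 in the same kind of window, 90.9% had a peak of precipitation 2, and 15.7% had a shared interval. The 2 of 7 granule protein genes with a peak in precipitation 1 and the 6 of 7 in precipitation 2 were near the share of all genes with these windows, and with so few genes the 0 of 7 with a shared interval sets no difference from the 15.7% of all genes. The windows of the 7 genes spanned 22733 to 36703 bp and were shorter than the median window of protein-coding genes, 47219 bp. When every gene was instead given 10 kb on each side of its start, the counts of the 7 genes stayed at 2, 6 and 0, while the shares of all genes were 14.9%, 79.8% and 6.90%. The 28.6% of the 7 genes with a peak of precipitation 1 thus lay below the share of all genes with the first kind of window and above it with the other.

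**Figure D1:**
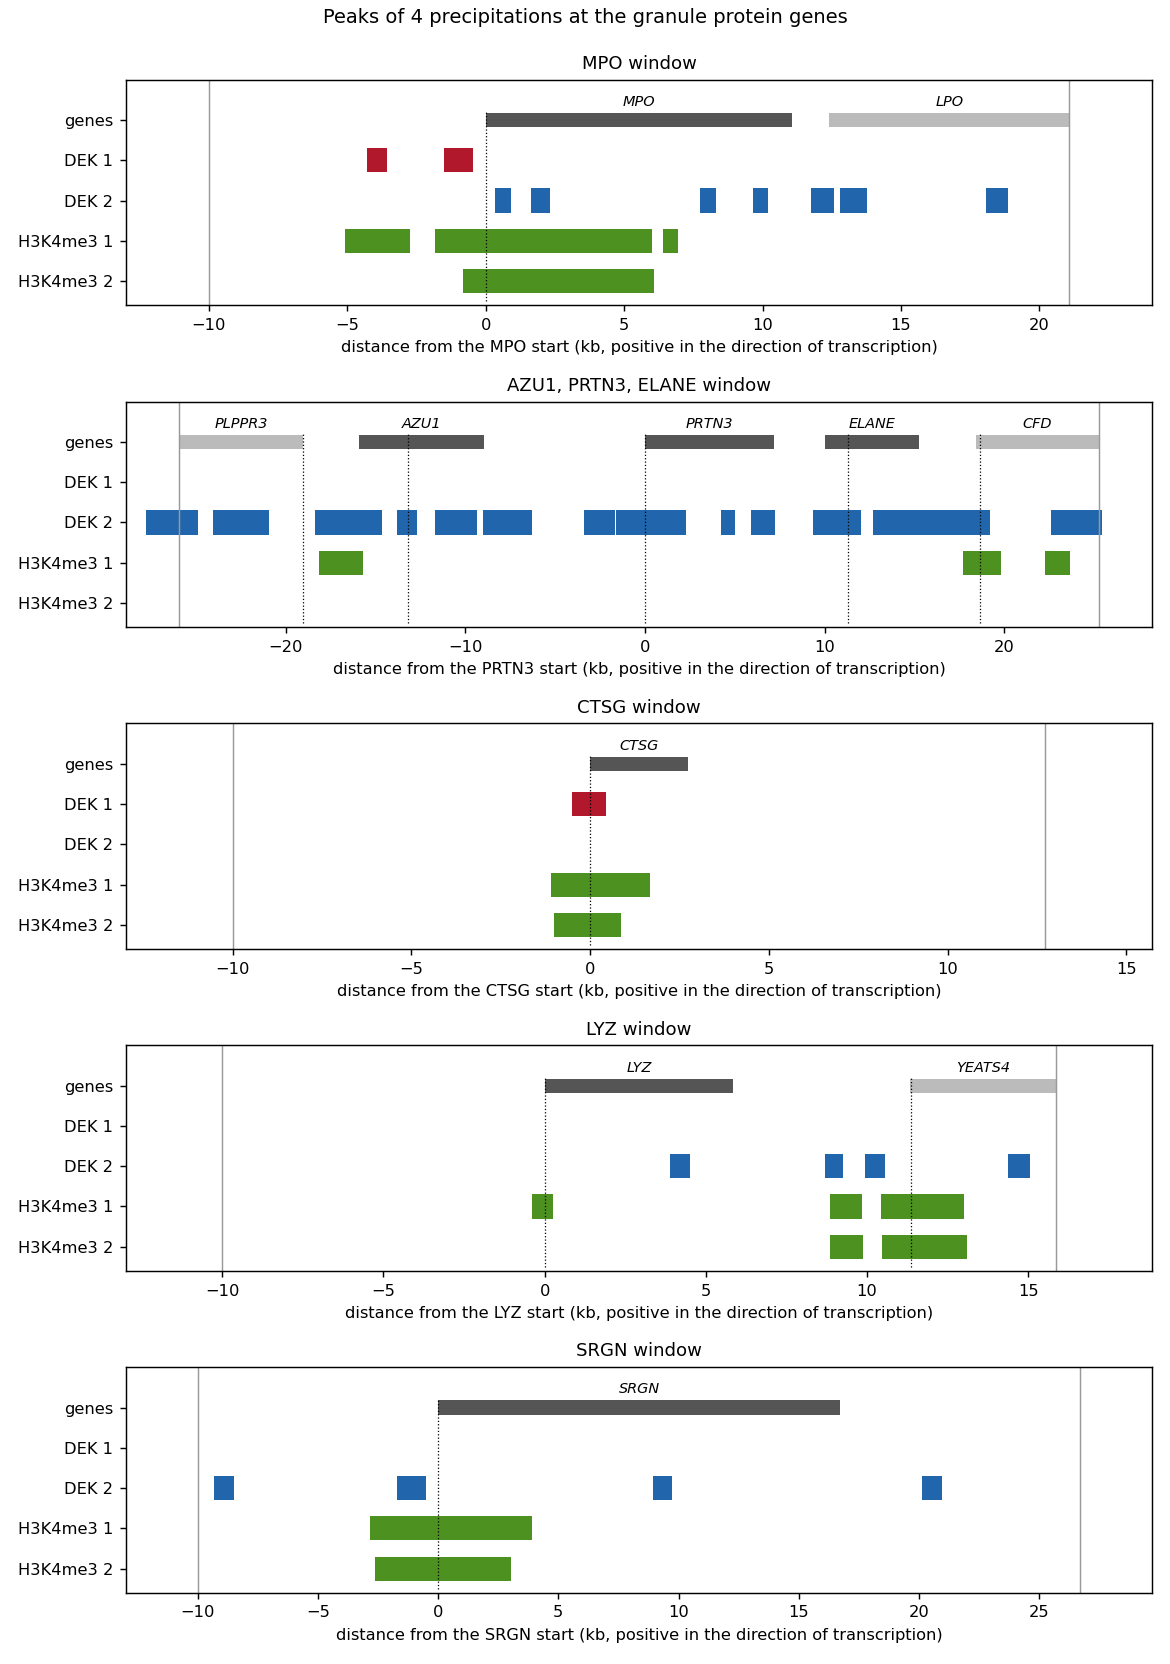
Peaks of DEK (red, precipitation 1; blue, precipitation 2) and H3K4me3 (green) in the windows of the 7 genes, drawn by distance from the gene start in kb. Dark bars are the 7 genes, pale bars their protein-coding neighbours, dotted lines the canonical gene starts and grey lines the ends of the windows; the red peaks are at MPO and CTSG only, and the blue peaks are densest at AZU1, PRTN3 and ELANE.

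CTSG, which encodes cathepsin G, was the gene of this group where a DEK peak of precipitation 1 covered the start. CTSG lies at chr14:25042724-25045456 on the minus strand. The peak, chr14:25045001-25045977, was 977 bp long and held 43 tags (31.1 to 57.9), scored 57.52 and was enriched 6.43-fold. Its middle lay 33 bp and its summit 106 bp upstream of the start, so that it held the whole promoter printed above. In tags and in score this peak was below the median of its own list, with rank 10902 of 15017 in score. In fold enrichment it was above the median, with rank 4556. The canonical start lay in a peak of precipitation 1 for 4.44% of protein-coding genes. Precipitation 2 had no peak in the CTSG window, where 0 of 22733 bp were covered, and the nearest edge of a peak of precipitation 2 was 25243 bp from the peak of precipitation 1. Both H3K4me3 precipitations covered the start, with peaks at chr14:25043781-25046561 and chr14:25044584-25046459, and the DEK peak overlapped both.

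MPO alone among the 7 genes had peaks in both DEK precipitations. MPO lies at chr17:56347216-56358296 on the minus strand. In precipitation 1 the stronger of its peaks, chr17:56358747-56359786, had 52 tags (38.8 to 68.2), scored 139.92 and was enriched 10.25-fold, with the summit 1005 bp upstream of the start. In fold enrichment it ranked 789 of 15017, the highest of the 3 peaks that precipitation 1 had at these genes. The other peak, chr17:56361873-56362566, had 27 tags (17.8 to 39.3), scored 57.94 and was enriched 6.01-fold, and its summit was 4075 bp upstream. Both lay upstream of MPO, with summits outside the canonical transcripts of protein-coding genes, and neither covered the start.

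The 7 peaks of precipitation 2 in the MPO window lay in the gene or downstream of it, with 12 to 37 tags and scores of 50.35 to 105.57. The peak nearest to the start, chr17:56357383-56357954, had its summit in intron 2 of MPO and 12 tags (6.20 to 21.0), the lowest number in the whole list. It was separated from the stronger peak of precipitation 1 by 793 bp. A peak of 14 tags had its summit in intron 6, a peak of 17 tags in coding exon 10 and a peak of 14 tags in intron 11. The peak with the most tags, chr17:56344522-56345497 with 37 tags (26.1 to 51.0), had its summit in intron 12 of LPO, the gene for lactoperoxidase, as did 1 further peak of 18 tags in intron 9 of LPO. At MPO the peaks of precipitation 1 were upstream of the start and those of precipitation 2 downstream of it, and they did not meet. Over the genome the lists shared 4453 intervals, beside 15017 peaks of precipitation 1. Peaks that do not meet were thus common, and this is not read as a trait of MPO.

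H3K4me3 covered the MPO start in both precipitations, with peaks of 7842 bp (chr17:56352285-56360126) and 6891 bp (chr17:56352218-56359108) that extended from upstream of the start into the gene. The stronger DEK peak of precipitation 1 overlapped both of them, as did the peaks of precipitation 2 in introns 2 and 6. The other peak of precipitation 1 overlapped an H3K4me3 peak of precipitation 1 only. In DEK precipitation 1 peaks covered 5.58% of the MPO window, which was more than in 95.5% of protein-coding genes, and in precipitation 2 they covered 15.9%, more than in 75.6%. Only 32.6% of protein-coding genes had any peak of precipitation 1, and the upper quartile of its coverage was 0.957%. At CTSG 1 peak covered 4.30%, more than in 93.1% of genes. A high rank in precipitation 1 therefore takes few peaks and is not read as unusual coverage.

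By the tags of the strongest peak in each DEK precipitation, 52 and 37 for MPO, the genes most like MPO among all protein-coding genes at other loci were ZNF286A-TBC1D26 with 53 and 37, GREB1 with 52 and 38, and TTL with 52 and 36. The likeness is the summed absolute difference of log2(1 + tags) over the 2 precipitations, which was 0.027, 0.037 and 0.038. None of these 3 genes had a shared interval, beside 15.7% of all protein-coding genes, and 3 genes are too few to set a difference from that share.

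The AZU1, PRTN3 and ELANE cluster had no DEK peak in precipitation 1, and the nearest one was 222733 bp from the start of ELANE, 234037 bp from that of PRTN3 and 247199 bp from that of AZU1. In precipitation 2, 14 peaks overlapped the combined window of 51151 bp (chr19:815097-866247). They held 1314 tags over their whole lengths, parts outside the window included. These peaks covered 65.8% of it. Covered shares were 68.5% of the AZU1 window, 67.3% of the PRTN3 window and 64.3% of the ELANE window, higher than in 99.3%, 99.2% and 98.9% of protein-coding genes, for which the median was 7.01% (quartiles 2.60 and 15.6%). Numbers of peaks were less exceptional, with 9 in the AZU1 window, 9 in that of PRTN3 and 7 in that of ELANE, against a median of 5 for protein-coding genes. The peaks there were long: the 14 peaks had a median length of 2532 bp (766 to 6504), and the other 15 peaks of precipitation 2 at these genes a median of 684 bp (539 to 1193).

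**Figure D2:**
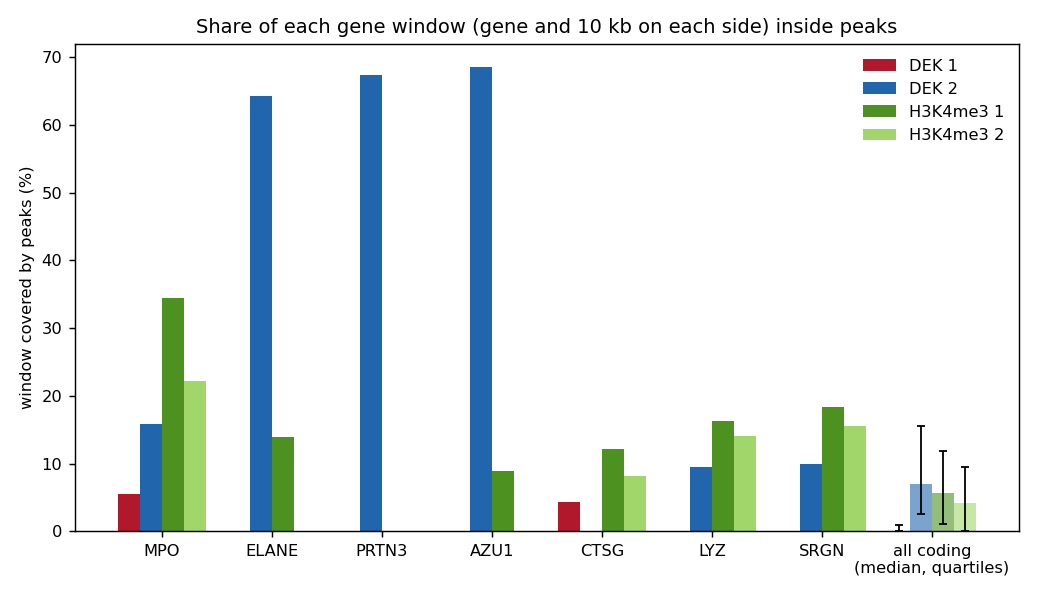
Share of each gene window covered by peaks (y axis, percent) in DEK precipitations 1 and 2 and H3K4me3 precipitations 1 and 2, with the median of all protein-coding genes and its quartiles (bars and whiskers) at the right. DEK precipitation 2 covered 64.3 to 68.5% of the windows of ELANE, PRTN3 and AZU1 and at most 15.9% of the other windows.

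The starts of AZU1, PRTN3 and ELANE were each covered by a peak of DEK precipitation 2, as were 28.7% of all protein-coding starts and 37.5% of those on chromosome 19. At AZU1 (chr19:825097-832018, plus strand) this peak, chr19:827182-828305, had 37 tags (26.1 to 51.0), scored 85.17 and was enriched 3.85-fold, with its summit in intron 1, 156 bp inside the gene from the canonical start. At PRTN3 (chr19:840999-848175, plus strand), the gene for proteinase 3, the peak chr19:839381-841385 had 75 tags (59.0 to 94.0), scored 174.13 and was enriched 3.49-fold, with its summit 568 bp upstream. At ELANE (chr19:851014-856247, plus strand), the gene for neutrophil elastase, the peak chr19:850334-853026 had 101 tags (82.3 to 123) and a score of 101.06. Its fold enrichment of 2.12 was the lowest of the 29, at rank 152575 of 152779, and its summit was 1531 bp upstream of the canonical start. Many tags and a low fold enrichment thus went together at the ELANE start. The printed promoters of PRTN3 and AZU1 lay inside the peaks at their starts.

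The strongest peaks of the cluster lay away from the 3 canonical starts. The peak chr19:813235-816101 in intron 6 of PLPPR3, the neighbour upstream of AZU1, had 157 tags (133 to 184), a score of 1251.33 that ranked 95 of 152779, and the highest fold enrichment of the 29, 10.55. Its summit, at 814690, lay outside the combined window, which only the end of this peak overlapped. The middle of this peak was 243 bp from an annotated start of PLPPR3. A peak of 6504 bp, chr19:853689-860192, ran from inside ELANE to the start of CFD, the gene for complement factor D, and had 245 tags (215 to 278), scored 302.21 and was enriched 4.67-fold. Further downstream, chr19:863584-866434 had 118 tags (97.7 to 141) and a score of 446.96. From the canonical start of AZU1 to the end of PRTN3, the tags ranged from 21 to 81 and the fold enrichment from 2.38 to 3.41, apart from the peaks at the canonical starts. Upstream of the canonical start of AZU1, 2 further peaks had 103 and 151 tags. The peak of 151 tags, chr19:822642-826381, reached into the AZU1 gene body and covered its annotated 5′ end at 825097. As a group the 14 peaks had a median of 78 tags and a median fold enrichment of 3.37, while the other 15 had medians of 20 tags and 4.05. Per kb of peak the tags overlapped, with 26.9 to 54.8 in the cluster and 21.0 to 41.7 in the others.

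**Figure D3:**
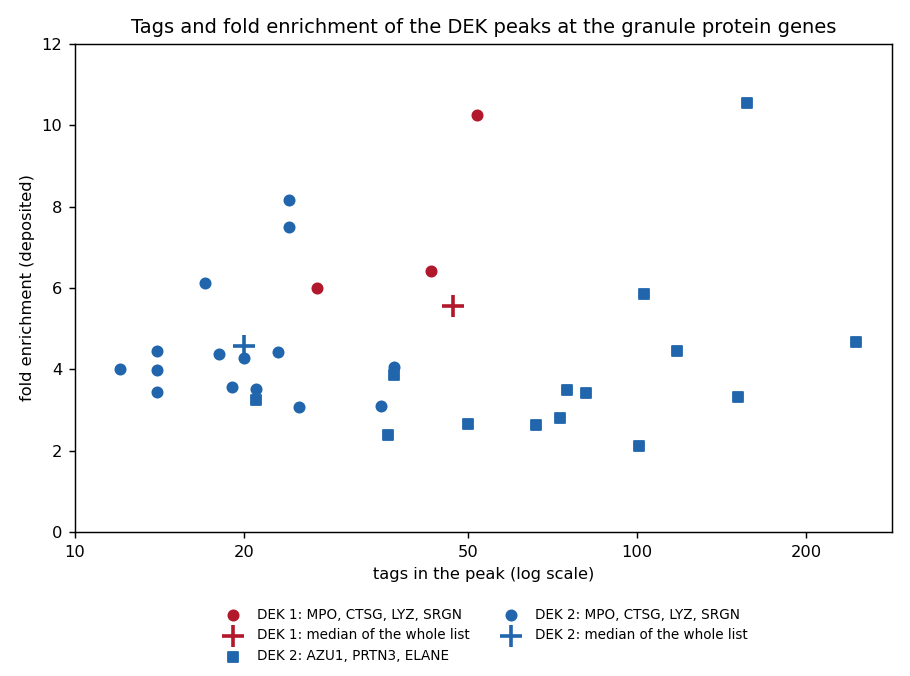
Tags (x axis, log scale) and deposited fold enrichment (y axis) of each DEK peak at the 7 genes, with the median of each whole list as a cross. Blue squares are the 14 peaks of precipitation 2 at AZU1, PRTN3 and ELANE, with up to 245 tags, blue circles the other 15 of precipitation 2, with at most 37, and red circles the 3 of precipitation 1.

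The neighbourhood of the cluster was dense in peaks of precipitation 2 as a whole. In the first 2 Mb of chromosome 19, a region chosen for this comparison after the values were seen, precipitation 2 had 595 peaks that covered 49.0% of the sequence, and precipitation 1 had 7 peaks that covered 0.754%. Peaks of precipitation 2 numbered 2.98 per 10 kb in this region and 2.74 per 10 kb in the cluster. Starts were covered in precipitation 2 for 38.6% of its 70 protein-coding genes. The GC content was 56.9% in the region and 58.0% in the cluster, compared with 40.9% in the genome and 40.8 to 48.2% in the windows of the other 4 genes. The part of GC content in the length of covered sequence was not tested.

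H3K4me3 at the cluster was found in precipitation 1 only. At AZU1 a peak of 2415 bp, chr19:822873-825287, ended 2550 bp before the canonical start and covered the start of a longer annotated transcript. No H3K4me3 peak lay in the PRTN3 window. In the ELANE window a peak at chr19:858680-860792 covered the CFD start and another lay within CFD at chr19:863250-864637. Of the 14 DEK peaks of precipitation 2, 3 overlapped these H3K4me3 peaks, and no canonical start of AZU1, PRTN3 or ELANE lay in H3K4me3.

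LYZ and SRGN, the genes of the group that are also transcribed in mature monocytes, had peaks in DEK precipitation 2 only, with 4 in each window. LYZ lies at chr12:69742161-69748014 on the plus strand. The peak within its body, chr12:69746061-69746662, had its summit in intron 3 and 14 tags (7.65 to 23.5). The other 3 lay downstream: chr12:69750852-69751427 with 24 tags, scoring 149.89 and enriched 7.5-fold, chr12:69752111-69752703 with 20 tags, and chr12:69756523-69757206 with 24 tags, scoring 153.94 and enriched 8.16-fold. The last of these was in intron 2 of YEATS4, the next gene. DEK covered neither the LYZ start, 3900 bp from the nearest peak, nor the YEATS4 start. At LYZ an H3K4me3 peak of 656 bp covered the start in precipitation 1 and none in precipitation 2, whereas 2 H3K4me3 peaks downstream, 1 of them over the YEATS4 start, were found in both.

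SRGN lies at chr10:70847859-70864561 on the plus strand. Its 4 peaks had 25 tags (16.2 to 36.9), 35 (24.4 to 48.7), 21 (13.0 to 32.1) and 23 (14.6 to 34.5) from upstream to downstream, with scores of 51.68, 64.46, 52.69 and 61.87, all below the median of the list. The peak nearest to the start, chr10:70846141-70847333, ended 526 bp before it, with the summit 712 bp upstream. It overlapped the H3K4me3 peaks that covered the SRGN start in both precipitations, of 6731 and 5682 bp. The third peak was in intron 2, and the first and last had summits outside the canonical transcripts of protein-coding genes. Peaks of precipitation 2 covered 9.50% of the LYZ window and 9.92% of the SRGN window, more than in 59.9% and 61.2% of protein-coding genes.

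Across the 7 genes, H3K4me3 covered the start in both precipitations at MPO, CTSG and SRGN, that is at 3 of 7 compared with 49.3% of protein-coding genes, and 4 of 7 windows had H3K4me3 peaks in both precipitations, compared with 72.3%. The canonical starts in a DEK peak of precipitation 2, AZU1, PRTN3 and ELANE, were those without H3K4me3 in either precipitation. The canonical start in a DEK peak of precipitation 1, CTSG, had it in both. At AZU1 this does not hold for the start of the longer annotated transcript. That start lay in a DEK peak of precipitation 2 and in an H3K4me3 peak of precipitation 1. The starts of AZU1, PRTN3 and ELANE belong to 1 locus, so the contrast with CTSG sets 1 locus beside 1 gene. It is not read as a pattern, and the share of all such starts without H3K4me3 was not counted. All 3 DEK peaks of precipitation 1 overlapped an H3K4me3 peak of either precipitation, as did 51.3% of all peaks of that list. In precipitation 2, 8 of 29 did, compared with 11.0% of the list: 3 at the chromosome 19 cluster, 2 at MPO, 2 at LYZ and 1 at SRGN. The shares of the lists also take in peaks far from any protein-coding gene, whereas all peaks counted here lay in or within 10 kb of one. The sets are therefore not alike, and the overlaps are not read as a trait of these genes. The peaks at the cluster were longer than the others, and the part of length in these overlaps was not tested.

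The sequence within 150 bp on either side of the middle of each peak was compared with the same window of all peaks in the list. GAGGAA was in 2 of the 3 windows of precipitation 1, at CTSG and MPO, and in 31.0% of all windows of that list, whereas in precipitation 2 it was in 1 of 29 and in 15.0% of all. TTNNGNAA was in 3 of 3 (47.7% of all) in precipitation 1 and in 13 of 29 (28.4%) in precipitation 2. AACNG was in 3 of 3 (77.0%) and 17 of 29 (62.3%), and TGTGGT in 1 of 3 (27.7%) and 3 of 29 (20.5%). GGGCGG was in 0 of 3 (11.2%) and 6 of 29 (22.0%), and CACGTG in 0 of 3 (4.76%) and 0 of 29 (4.93%). These are counts of letters on either strand in few windows, and neighbouring peaks of the cluster share their surroundings. The median GC content of the windows was 56.5% in precipitation 1, compared with 48.2% in its list, and 52.8% in precipitation 2, compared with 53.5%.

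Other genes of the granules were counted in the same way. Of 8 further azurophil granule genes, among them BPI, CTSC and PRSS57, 4 had a peak in DEK precipitation 1, 8 in precipitation 2 and 1 a shared interval. For 10 genes of the specific and gelatinase granules, which are filled later in neutrophil maturation, the numbers were 4, 8 and 3. For 6 eosinophil granule genes they were 3, 3 and 0, and for 5 genes for inhibitors of the granule proteases 1, 3 and 0. Together 12 of these 29 genes had a peak in precipitation 1 (41.4%), 22 in precipitation 2 (75.9%) and 4 a shared interval (13.8%), beside 32.6%, 90.9% and 15.7% of all protein-coding genes. H3K4me3 in both precipitations was in the window of 15 of the 29 (51.7%), beside 72.3% of all protein-coding genes. The median window of the 29 genes was shorter, 29953 bp compared with 47219 bp, and the part of window length in these shares was not tested.

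**Figure D4:**
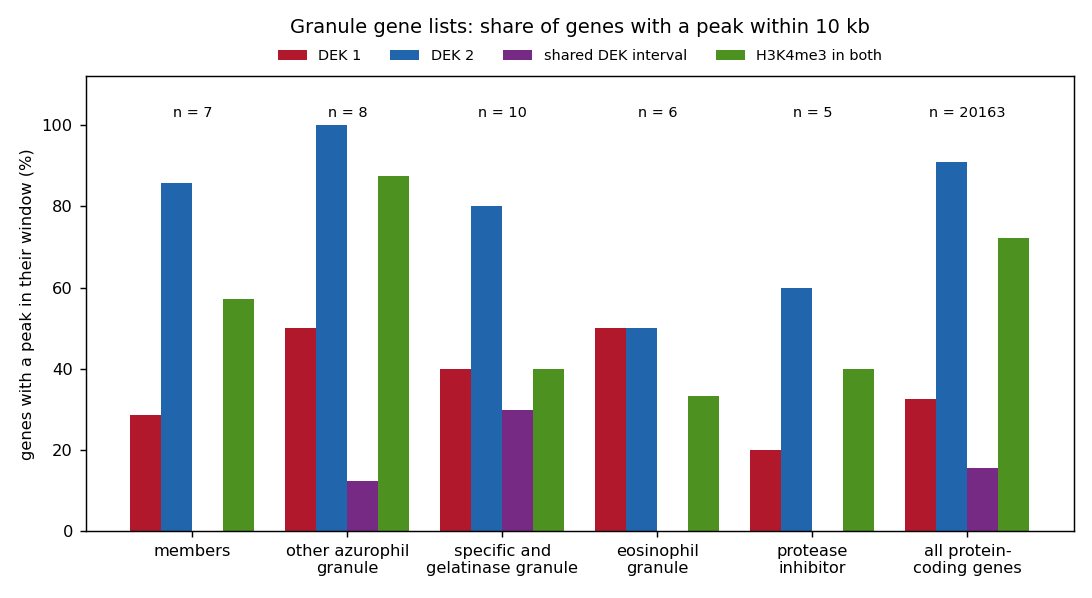
Share of the genes of each granule list with a peak in the gene or within 10 kb of it (y axis, percent) for DEK precipitation 1, DEK precipitation 2, a shared DEK interval, and H3K4me3 in both precipitations, with all 20163 protein-coding genes at the right. The 7 genes described here, labelled members, had no shared interval, and the specific and gelatinase granule genes had 3 in 10.

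CTSC, which encodes the dipeptidyl peptidase that activates the granule serine proteases, was the gene of these lists with a shared interval close to its own start. The interval chr11:88070303-88071197 was centred 154 bp inside the gene, with 134 tags in precipitation 1 and 34 in precipitation 2, scores of 229.93 and 100.86, fold enrichments of 5.9 and 3.57, and H3K4me3 in both precipitations. CHI3L1, for a chitinase-like protein of the specific granules, had a shared interval of 68 and 40 tags that was 187 bp from the start of MYBPH. The shared interval of 22 and 17 tags at CRISP3 was 18645 bp, and that of 31 and 18 tags at MMP8, the neutrophil collagenase, 21342 bp from the start of the gene. Neither of these intervals, nor that at CHI3L1, overlapped an H3K4me3 peak.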

How the data were processed

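Peak lists of 2 DEK and 2 H3K4me3 precipitations from U937 were used; the input was not used here. According to the study's methods, reads were called with OLB, aligned to hg19 with Bowtie 2, and peaks called per precipitation with MACS 1.4.1 under default parameters. That description covers DEK; for H3K4me3, GEO's processing notes name the same tools and build. The deposited DEK lists hold tag counts per peak (counts, not normalised), a score (10 times the −log10 of the p-value), a fold enrichment over control (ratio) and a false discovery rate in percent, all as given by the authors. The deposited H3K4me3 lists hold positions only. MACS scores and tag counts depend on depth; the study's methods give a minimum number of reads per sample, and the files give no total per library.

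Overlap of at least 1 bp was counted. Gene starts are those of the canonical transcript (19881 of 20163 genes; the 5′ end of the gene otherwise). The 7 genes, the other granule lists and the alternatives were chosen with earlier results of these data known. Named genes were the 7, genes of the other lists with a shared interval, the gene nearest to each peak, protein-coding neighbours, and the 3 genes closest to MPO in tags; CFD, PLPPR3, LPO and YEATS4 are such neighbours. PRSS57, BPI, RNASE2, RNASE3 and EPX, given with values among the other observations, are outside this rule and were chosen after their values were seen. No test across genes was made, since each list is 1 value per precipitation. The interval code passed 7 of 7 checks when tested on simulated data of 1000 genes. Python 3.11.15, pandas 2.3.3, NumPy 2.4.6, SciPy 1.17.1 and Matplotlib 3.10.9 were used. The windows of 5 and 25 kb, the gene body alone, 10 kb around the start, a score of at least 100, lists of equal length, other overlap rules and each precipitation alone were the alternatives.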

Additional observations from a re-analysis of the deposited data

How the results depend on the processing

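The number of shared intervals at the 7 genes stayed at 0 with the gene body alone, with 5 or 25 kb on each side, with 10 kb around the start, at a score of at least 100, with lists of equal length, with at least 50% of each peak required to overlap, and when peaks within 500 bp were counted as shared. Without the requirement of both precipitations, that is with 1 precipitation alone, the number of intervals was 3 to 29 and the number of genes 2 to 6. Within the gene bodies alone, DEK precipitation 1 had 1 peak at 1 gene, precipitation 2 had 16 peaks, and H3K4me3 had 6 peaks in precipitation 1 and 3 in precipitation 2. With 25 kb on each side, DEK precipitation 2 had 47 peaks and H3K4me3 17 and 10. A score of at least 100 left 1 peak at 1 gene in DEK precipitation 1 and 12 peaks in precipitation 2. When the list of precipitation 2 was limited to its 15017 highest scores, 8 peaks were left, 7 of them at AZU1, PRTN3 and ELANE and 1 at LYZ. The share of all genes with a peak of precipitation 1 fell from 32.6% to 14.9% with 10 kb around the start and to 21.0% over all annotated genes. Lists of equal length could not be made for H3K4me3, which has no score. The study's methods give a minimum depth, but the reads of each library are not in the files, which limits every comparison of tags between the precipitations. No paired analysis was possible because the results come from no test.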

Other observations

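PRSS57, BPI, RNASE2, RNASE3 and EPX were picked from the other granule lists after their values were seen. PRSS57, a serine protease of azurophil granules that lies nearer the same end of chromosome 19 (chr19:685546-695498), had the pattern of the AZU1, PRTN3 and ELANE cluster, with no DEK peak in precipitation 1 and 10 in precipitation 2, the strongest of 208 tags, and its start covered in precipitation 2. It had H3K4me3 peaks in both precipitations, 5 and 4. PRSS57 lies in the first 2 Mb of chromosome 19, where DEK precipitation 2 had 595 peaks and precipitation 1 had 7. In that region 38.6% of protein-coding starts were covered in precipitation 2. The likeness to the cluster is therefore not read as a trait of granule genes. BPI and RNASE2 had, as CTSG did, a start covered in precipitation 1 and not in precipitation 2, with 84 and 71 tags in their strongest peaks. RNASE2 and RNASE3 had, as CTSG did, no peak of precipitation 2 in their windows. They were not alone in this: 22 of the 29 genes of these lists (75.9%) had such a peak, beside 90.9% of all protein-coding genes. The other genes of these lists without a peak of precipitation 2 had none in precipitation 1 either. EPX, the eosinophil peroxidase gene on the other side of LPO from MPO, had 1 peak of 52 tags in precipitation 1 and 7 in precipitation 2, the strongest of 65 tags, and its start lay in a peak of precipitation 2.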
